A study of Homo sapiens with 12 samples.

Results

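The genes followed here, measured by RNA-seq in 4 human breast cell lines, are nuclear-encoded. Most encode subunits of the mitochondrial respiratory chain and ATP synthase. They were taken by symbol, as every row of the table that begins NDUFA, NDUFB, NDUFC, NDUFS or NDUFV and a number, SDHA to SDHD, UQCR, COX4 to COX8, or ATP5. The pattern found 86 genes among 29744 rows, after 2 pseudogene rows (ATP5EP2 and UQCRBP1) were left out. By complex these were 36 genes of complex I, 4 of complex II, 9 of complex III, 18 of complex IV and 19 of ATP synthase (complex V). By their symbols, the coupling or assembly factors ATP5S and ATP5SL were counted with complex V. NDUFA4 was placed in complex IV, where its product is now counted. Of the 86 genes, 79 passed the filter on low counts and were tested, and the 7 that did not are described with the tissue isoforms. Subunits with other symbols, such as CYC1, NDUFAB1 and the ATP synthase inhibitor ATPIF1, lie outside the pattern and are given separately.

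The lines share the MCF10A background. CA1 (MCFCA1) is the invasive line of the series design, T1 (MCFT1) its line of atypical hyperplasia, NeoT (MCFNeoT) its line of benign hyperplasia, and A10 (MCF10A) the mammary line that forms no tumours. NeoT is known as MCF10A given a mutant HRAS, and T1 and CA1 as lines raised from it by growth as xenografts, so the 3 derived lines all carry that gene. The design calls all 4 lines triple-negative. Each line is 1 derivative and the labels name no clone, so transgene, passage and clone cannot be told apart. Every line had 3 biological replicates, 12 libraries in all. The labels do not say that replicates were separate cultures, so the p-values measure the spread between these libraries, which may be technical.

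Library totals ran from 18032404 to 35730417 estimated counts, and levels are given as CPM (counts scaled to library size with TMM factors). HRAS stood at 289 to 312 CPM in CA1, 147 to 170.4 in T1 and 218 to 261 in NeoT, against 61.7 to 69.8 in A10. Of the epithelial keratins, KRT18 stood at 316 CPM or more in every library, and KRT8 rose in CA1 (4.65), T1 (3.49) and NeoT (1.68) against A10 on the log2 scale. The basal keratin KRT5 averaged 270.5 CPM in CA1, 1963 in T1 and 40.2 in NeoT, against 3347 in A10. KRT14, its basal partner, averaged 3.33 CPM in CA1, 25.3 in T1 and 2.57 in NeoT, against 451 in A10. CDH1, the epithelial cadherin, was near absent in NeoT, with 41 counts over its 3 libraries and a mean of 0.691 CPM, against 313 CPM in A10. EPCAM, another epithelial marker, averaged 7.24 CPM in NeoT, against 41.7 in A10, and rose in T1 (2.52 on the log2 scale). Of these 6 epithelial markers, 3 were higher and 2 lower in CA1 than in A10 (all genes tested: 34.4% and 36.5%). In T1 the counts were 4 and 2 (all genes: 26% and 25.9%), and in NeoT 1 and 4 (all genes: 33.7% and 36.7%). The leukocyte markers PTPRC and CD3E and the receptor gene PGR had no count in any library. Of the other receptor genes that a triple-negative line lacks, ERBB2 rose in CA1 (1.37) and T1 (1.36) and fell in NeoT (-0.41) against A10. ESR1 fell in NeoT (-7.15) and did not pass the edgeR test in CA1 (0.79, adjusted p = 0.177) or T1 (0.35, adjusted p = 0.595). PECAM1, an endothelial marker, averaged 23.96 CPM in CA1, 85.6 in T1, 2.17 in NeoT and 2.09 in A10. The 6 markers of leukocytes, endothelium and fibroblasts summed to 27.4 to 28.4 CPM in CA1, 82.7 to 90.7 in T1, 10.2 to 11.2 in NeoT and 6.84 to 8.18 in A10. PECAM1 alone made up most of the sums in CA1 and T1. The fibroblast marker COL1A1 fell in T1 (-2.31) and rose in NeoT (0.68) against A10. In CA1 it did not pass the edgeR test (-0.33, adjusted p = 0.217). The part of these markers in the results below was not tested. Cytoplasmic rRNA took 7.76% of the counts of T1 replicate 1 and 0.954% to 2.18% of the other libraries.

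Replicates of a line did not sit equally for these genes. NeoT replicate 3 was the lowest of the 3 NeoT libraries for 56 of the 79 tested genes, against 38.2% of all genes tested. Among the 26 with a transcript under 750 bases it was the lowest for 24, with a median log2 difference of -0.52 from the mean of the other 2 NeoT libraries. A10 replicate 2 was the lowest A10 library for 58 of the 79 genes, against 32.7% of all genes, with a median log2 difference of -0.14. NeoT replicate 1 was the lowest NeoT library for 4 of the 79 (all genes: 35.7%), with a median log2 difference of 0.27. T1 replicate 1, which held the most cytoplasmic rRNA, was the lowest T1 library for 15 (all genes: 34.4%), with a median of 0.04. Counts per line against A10 that moved by over 1.5 times without T1 replicate 1 and NeoT replicate 3 are given both ways. That choice was made after the data were seen and keeps NeoT replicate 1 and A10 replicate 2.

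In the respiratory chain, complex I takes electrons from NADH and complex II from succinate. Both pass them to ubiquinone, from which complex III hands them through cytochrome c to complex IV, where oxygen is reduced. Complexes I, III and IV pump protons out of the mitochondrial matrix, and complex V lets them back to make ATP. All but complex II combine subunits of nuclear and mitochondrial DNA. The mRNAs of the mitochondrial genome were not analysed here. The transcription factors NRF1, GABP (an ETS factor), YY1 and ERR-alpha are known regulators of the nuclear genes, together with the PGC-1 coactivators.

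Promoters are shown for a gene of each complex, chosen to show the motifs of these factors in genes described below. Each stretch is the 250 bases before the annotated start of the gene in RefSeq (build GRCh38.p14), written 5′ to 3′ on the strand of the gene. Capitals mark matches on either strand to the NRF1 motif (GCGCA, any base, GCGC) or the ETS motif CCGGAAG, and none of these matches overlaps another. The SDHA stretch (chr5:218070-218319, plus strand) holds 4 NRF1 matches, and the NDUFB4 stretch (chr3:120596086-120596335, plus strand) holds 2. That of UQCR11 (chr19:1605463-1605712, minus strand) holds 2 NRF1 and 2 ETS matches, that of COX5B (chr2:97645812-97646061, plus strand) 1 ETS match and that of ATP5O (chr21:33915805-33916054, minus strand) 1 NRF1 match. A match is a description of the letters, not a site.
SDHA: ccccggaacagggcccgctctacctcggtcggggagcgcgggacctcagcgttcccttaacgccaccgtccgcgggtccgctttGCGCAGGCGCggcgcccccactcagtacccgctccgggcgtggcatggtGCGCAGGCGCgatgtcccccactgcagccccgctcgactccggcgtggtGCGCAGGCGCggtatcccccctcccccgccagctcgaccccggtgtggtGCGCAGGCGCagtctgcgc
NDUFB4: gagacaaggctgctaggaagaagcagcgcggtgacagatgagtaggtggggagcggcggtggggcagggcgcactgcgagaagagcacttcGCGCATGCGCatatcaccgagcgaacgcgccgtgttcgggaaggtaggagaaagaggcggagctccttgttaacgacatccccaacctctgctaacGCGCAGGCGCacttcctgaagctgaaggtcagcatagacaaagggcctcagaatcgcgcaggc
UQCR11: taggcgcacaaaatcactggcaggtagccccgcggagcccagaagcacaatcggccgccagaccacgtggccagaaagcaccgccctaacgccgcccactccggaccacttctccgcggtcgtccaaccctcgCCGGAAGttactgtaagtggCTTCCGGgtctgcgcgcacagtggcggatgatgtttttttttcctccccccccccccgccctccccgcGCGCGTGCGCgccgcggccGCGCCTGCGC
COX5B: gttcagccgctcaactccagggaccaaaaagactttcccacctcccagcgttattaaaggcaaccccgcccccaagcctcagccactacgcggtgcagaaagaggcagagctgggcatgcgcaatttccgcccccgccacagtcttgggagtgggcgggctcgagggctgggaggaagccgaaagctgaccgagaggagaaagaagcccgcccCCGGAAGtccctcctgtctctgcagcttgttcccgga
ATP5O: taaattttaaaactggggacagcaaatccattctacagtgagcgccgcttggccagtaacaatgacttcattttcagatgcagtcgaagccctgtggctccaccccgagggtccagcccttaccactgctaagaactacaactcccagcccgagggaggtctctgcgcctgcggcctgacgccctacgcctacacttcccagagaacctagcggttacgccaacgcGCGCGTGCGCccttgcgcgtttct

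Among the promoters in the RefSeq table, which cover the 250 bases before a start and 50 after, 68 of the 86 genes had an entry. The NRF1 motif was found on either strand in 16 of them (23.5%), against 11.4% of 11075 promoters of genes tested and 6.28% of all 27305 promoters. The ETS motif stood in 19 (27.9%, against 18.6% of the promoters of genes tested), and the YY1 motif AAGATGGCG in 8 (11.8%, against 3.83%). The ERR motif TCAAGGTCA stood in 1 (1.47%, against 0.181%). Of the genes lower in CA1 than in A10, 10 of 38 with an entry held the NRF1 motif (26.3%), of those higher 2 of 9 (22.2%), and of those called in neither direction 3 of 18 (16.7%). For the ETS motif the shares were 31.6%, 11.1% and 33.3%. By complex the NRF1 motif was found in 6 of 31 promoters of complex I, 2 of 3 of complex II, 4 of 7 of complex III, 1 of 15 of complex IV and 3 of 12 of complex V.

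As a set, the respiratory genes were lowest in CA1. Summed over the 86 genes, CA1 held 6939, 7044 and 7234 CPM, T1 8703, 8446 and 8457, NeoT 10060, 9147 and 8447, and A10 8888, 8386 and 9153. All 3 CA1 libraries lay below every library of the other lines, while T1, NeoT and A10 overlapped. In bulk samples, fewer cells that express a gene and less of its RNA per cell cannot be told apart. The CA1 mean was 80.3% of the A10 mean, that of T1 96.9% and that of NeoT 104.7%. NeoT replicates were spread more widely than those of the other lines (SD 811 CPM, against 150 in CA1, 145 in T1 and 390 in A10).

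**Figure D1:**
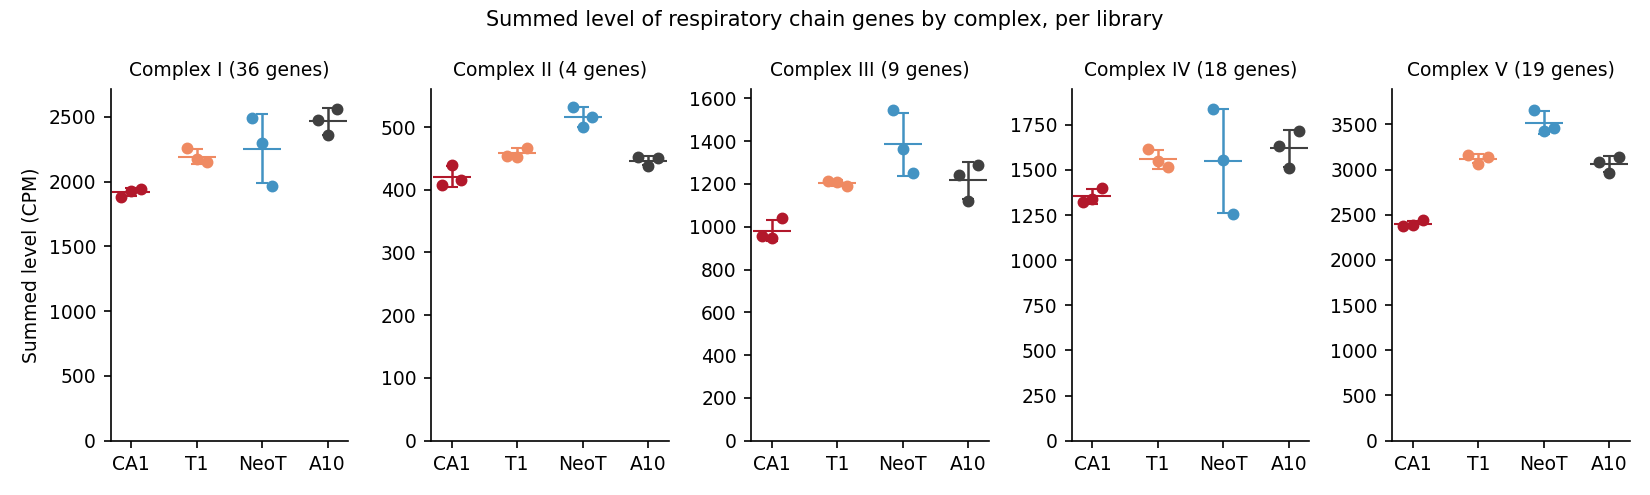
Summed level in CPM of the genes of each complex (y axis) in the lines CA1, T1, NeoT and A10 (x axis), 1 point per library with the mean and SD of 3 libraries. CA1 libraries lie lowest in complexes I, III and V, where the CA1 means are 77.8%, 80.6% and 78.4% of the A10 means, and in complex II the CA1 mean is 94.2% of it.

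Tested gene by gene, 11 of 79 genes were higher and 49 lower in CA1 than in A10, where 34.4% of all genes tested were higher and 36.5% lower. As shares, 13.9% of the respiratory genes were higher and 62% lower, and their median log2 fold change was -0.42 against -0.02 over all genes tested. A call means an adjusted p under 0.05 in edgeR's quasi-likelihood test, adjusted over all 14417 genes tested. Of the 49 lower calls, 41 held in every one of the 12 fits that left out 1 library, and of the 11 higher calls 9 did. Without both NeoT replicate 3 and T1 replicate 1, the library high in cytoplasmic rRNA, 12 were higher and 58 lower.

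In T1 against A10, 11 genes were higher and 14 lower, where 26% of all genes tested were higher and 25.9% lower. The shares of respiratory genes were 13.9% and 17.7%, and their median log2 fold change was -0.11. The number lower changed with the libraries in the fit. It was 24 without NeoT replicate 1, 28 without NeoT replicate 3, 27 without both T1 replicate 1 and NeoT replicate 3 (13 higher), and 30 in a fit to the T1 and A10 libraries alone. With upper-quartile scaling the split was 9 higher and 20 lower.

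In NeoT against A10, 21 genes were higher and 23 lower, where 33.7% of all genes tested were higher and 36.7% lower. The shares of respiratory genes were 26.6% and 29.1%, and the median log2 fold change was -0.05. Without NeoT replicate 3 the number higher was 29, and without NeoT replicate 1 the number lower was 32. The 3 comparisons with A10 share its libraries and are not independent of each other.

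Between derived lines, CA1 was again the lower one. In CA1 against T1, 8 genes were higher and 40 lower (all genes: 30.4% and 31.9%), and in CA1 against NeoT 9 were higher and 38 lower (all genes: 33.8% and 32.7%). The medians were -0.28 and -0.35. In T1 against NeoT, 15 were higher and 23 lower, where 35% and 32.4% of all genes were. These last counts hung on NeoT: without NeoT replicate 1 they were 25 and 14, without NeoT replicate 3 the number lower was 36, and with T1 replicate 1 and NeoT replicate 3 both left out they were 11 and 35. The number lower in CA1 against NeoT was 52 without NeoT replicate 3 and 32 without NeoT replicate 1.

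Across the 4 lines together, 66 of the 79 genes differed (83.5%), against 89.8% of all genes tested. NDUFA1, NDUFA11, SDHB and UQCRHL were called in a single comparison with A10 but not here. The 13 that did not pass were ATP5C1, COX5A, COX6B1, COX7A2, NDUFA1, NDUFA2, NDUFA11, NDUFA13, NDUFB6, NDUFV2, SDHB, UQCRB and UQCRHL. CA1 had the lowest mean of the 4 lines for 45 of the 79 genes, against 29% of all genes. For 24 genes the 3 CA1 libraries all lay below the other 9 libraries (30.4%, against 14.8% of all genes). The 3 CA1 libraries lay above all others for 5 genes (6.33%, against 16.7%): COX6B2, COX7A2L, NDUFB4, NDUFS1 and NDUFS4. The 3 NeoT libraries lay above all others for 16 genes (20.3%, against 17% of all genes) and the 3 A10 libraries for 14 (17.7%, against 15.9%). T1 lay above all others for UQCRFS1 alone (8.25% of all genes) and below all others for ATP5G2 alone (5.34%).

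**Figure D2:**
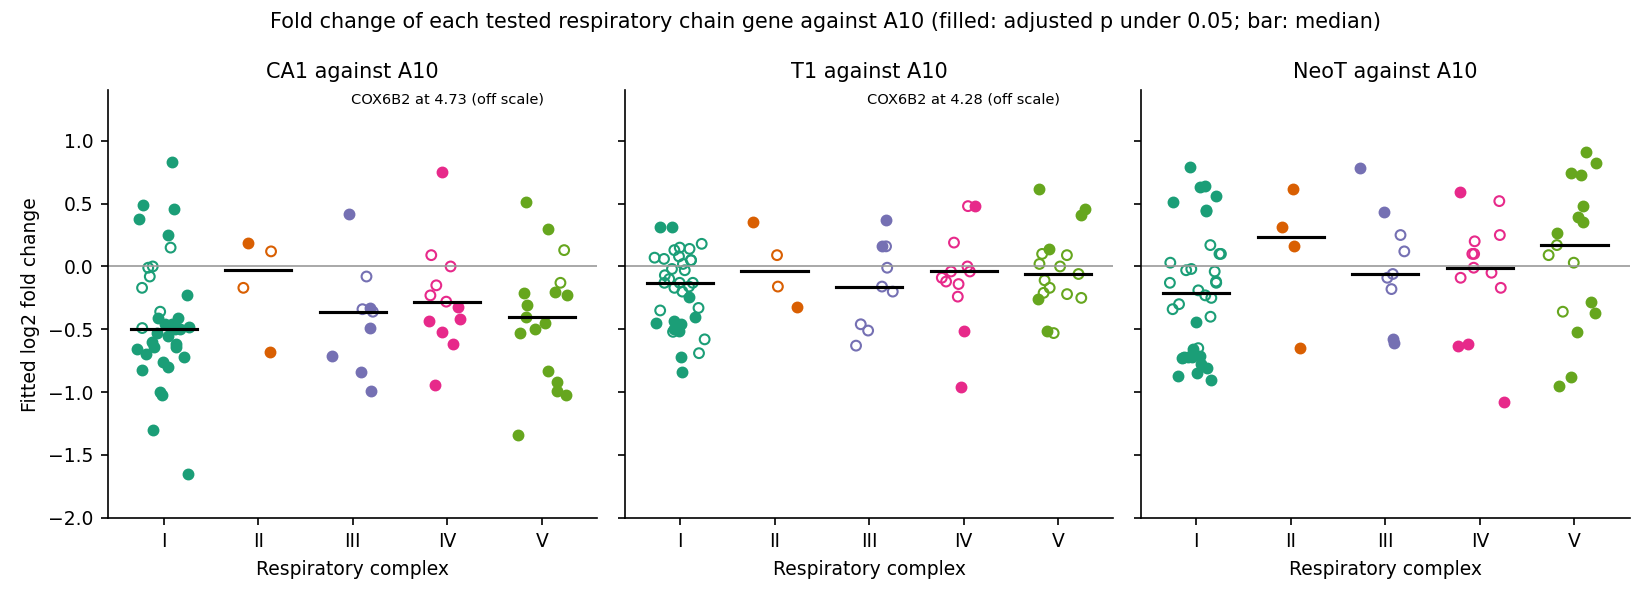
Fitted log2 fold change of each tested gene (y axis) by complex (x axis) in CA1, T1 and NeoT, each against A10; filled points have an adjusted p under 0.05, bars are medians, and COX6B2 lies off the scale at 4.73 in CA1 and 4.28 in T1. The CA1 medians of complexes I, III, IV and V are -0.50, -0.36, -0.28 and -0.40, while complex II is at -0.02.

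Complex I, the entry point of electrons from NADH, was mostly lower in CA1. Of its 36 genes, 5 were higher and 24 lower in CA1 than in A10, with a median log2 fold change of -0.50. These are 13.9% and 66.7%, against 34.4% and 36.5% of all genes tested. In T1 2 were higher and 9 lower (5.56% and 25%, against 26% and 25.9% of all genes). In NeoT 7 were higher and 12 lower (19.4% and 33.3%, against 33.7% and 36.7%). With T1 replicate 1 and NeoT replicate 3 left out, 14 were lower in T1. Its summed level was 1883, 1930 and 1942 CPM in CA1, 2258, 2171 and 2150 in T1, 2491, 2301 and 1964 in NeoT, and 2478, 2357 and 2562 in A10. CA1 and T1 libraries all lay below the A10 ones, while NeoT overlapped A10.

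The 7 core subunits, which bind the flavin and the iron-sulfur clusters that carry the electrons, moved in different directions. NDUFV1, the flavin subunit that takes up NADH, went both ways: its mean was 91.3 ± 5.54 CPM in CA1, 132 ± 11.3 in T1, 166 ± 17.8 in NeoT and 107 ± 3.81 in A10 (SD, n = 3 each). It rose in NeoT (0.64, adjusted p = 1.59e-06) and T1 (0.31, adjusted p = 0.00456) and fell in CA1 (-0.23, adjusted p = 0.021), a call lost in 3 of the fits that left out 1 library (without A10 replicate 3, CA1 replicate 1 or CA1 replicate 3), where the largest adjusted p was 0.0891.

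NDUFS8, which carries a pair of iron-sulfur clusters, showed the same order, with means of 74.5 ± 0.6 CPM in CA1, 112 ± 2.32 in T1, 158 ± 3.60 in NeoT and 102 ± 8.98 in A10. Expression rose in NeoT (0.63, adjusted p = 1.48e-07) and fell in CA1 (-0.46, adjusted p = 9.93e-06). CA1 and NeoT differed by -1.08 ± 0.07 (SE) on the log2 scale. NDUFS1, the largest core subunit, was the only core gene higher in CA1: it had 113, 115 and 115 CPM in CA1, against 96.8, 97.3 and 95.01 CPM in A10 (log2 fold change 0.25 ± 0.06 SE, adjusted p = 0.00121). NDUFS3 fell in CA1 (-0.41, adjusted p = 0.000141), while NDUFS7 and NDUFV2 did not pass the test there, at -0.17 (adjusted p = 0.187) and -0.01 (adjusted p = 0.878).

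Accessory subunits surround the core, and many are needed for assembly. In CA1 4 of 29 were higher and 20 lower, with a median log2 fold change of -0.53. These are 13.8% and 69%, against 34.4% and 36.5% of all genes tested. NDUFB2 differed most: it had 14.98, 15.9 and 19.2 CPM in CA1, 48.5, 39.8 and 53.6 CPM in T1, 34.8, 32.8 and 28.03 CPM in NeoT and 53.8, 46.4 and 57.7 CPM in A10. CA1 lay below every other library, NeoT lay between CA1 and the pair T1 and A10, and T1 overlapped A10. Expression fell in CA1 (log2 fold change -1.65 ± 0.13 SE, adjusted p = 1.48e-09) and in NeoT (log2 fold change -0.72 ± 0.12 SE, adjusted p = 3.88e-05), and in T1 it stood at -0.16 (adjusted p = 0.293). NDUFB9, an accessory subunit of the membrane arm, had 45.3, 49.4 and 47.01 CPM in CA1, 67, 67.1 and 61.4 CPM in T1, 72.9, 61.6 and 59.7 CPM in NeoT and 116, 112 and 122 CPM in A10. All 9 libraries of the derived lines lay below A10, and CA1 lowest. NDUFB9 fell in CA1 (log2 fold change -1.30 ± 0.08 SE, adjusted p = 7.12e-11), T1 (-0.84, adjusted p = 5.66e-08) and NeoT (-0.85, adjusted p = 2.45e-08).

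NDUFB4, another membrane arm subunit, went the other way in CA1. It had 121, 126 and 131 CPM in CA1, 73.7, 68.4 and 73.3 CPM in T1, 75.3, 70.6 and 61.9 CPM in NeoT and 74.4, 67.5 and 70.5 CPM in A10. The 3 CA1 libraries stood far above the other 9, which overlapped. It rose in CA1 against A10 (log2 fold change 0.83 ± 0.08 SE, adjusted p = 1.76e-08) and by 0.81 ± 0.08 against T1, and did not pass the test in T1 or NeoT against A10 (0.02 and -0.03). NDUFB5 was highest in NeoT, with 81.9, 80.1 and 82.2 CPM in CA1, 61.2, 60.95 and 63.5 CPM in T1, 102, 96.3 and 110.5 CPM in NeoT and 65.2, 53.4 and 59.1 CPM in A10. It rose in NeoT (log2 fold change 0.79 ± 0.08 SE, adjusted p = 3.91e-08) and, less far from A10, in CA1 (0.46, adjusted p = 4.23e-05), while T1 overlapped A10. NDUFS4, a subunit near the NADH end whose loss causes Leigh syndrome, rose in CA1 (0.38, adjusted p = 0.00112), as did NDUFA7 (0.49, adjusted p = 0.00181).

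NDUFS6, which carries a zinc ion at the NADH end, had 41.6, 45.8 and 47.4 CPM in CA1, 45.9, 53.04 and 38.6 CPM in T1, 41.6, 35.3 and 26.9 CPM in NeoT and 66.3, 59.7 and 68.2 CPM in A10. The derived lines lay below A10 without overlap, and NeoT replicate 3 was the lowest library. It fell in NeoT (log2 fold change -0.90 ± 0.13 SE, adjusted p = 1.14e-05), T1 (-0.50) and CA1 (-0.53). NDUFA10, a nucleoside-kinase-like subunit, had 83.1, 78.1 and 82.2 CPM in CA1, 112, 98.4 and 109 CPM in T1, 130.5, 127 and 122 CPM in NeoT and 84.99, 80.7 and 91.7 CPM in A10. Its level rose in NeoT (log2 fold change 0.56 ± 0.07 SE, adjusted p = 1.06e-06) and T1 (0.31, adjusted p = 0.00118), neither of which overlapped A10. CA1 did overlap A10, at -0.08 (adjusted p = 0.319). Several other accessory genes were lower in all 3 derived lines: NDUFA8, NDUFB3, NDUFC1 and NDUFS5, with log2 fold changes in CA1 of -0.41, -0.60, -0.64 and -0.50. In T1 the calls of NDUFB3 and NDUFC1 were lost without A10 replicate 1 or 3 or T1 replicate 3, and that of NDUFC1 also without T1 replicate 2 (adjusted p up to 0.0928 for NDUFB3 and 0.0924 for NDUFC1). The calls of NDUFA1, NDUFA3 and NDUFA11, lower in CA1, held in 7, 8 and 6 of the 12 fits that left out 1 library, and adjusted p reached 0.0807, 0.0794 and 0.102.

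Complex II, succinate dehydrogenase, is the 1 complex of the chain made wholly of nuclear subunits, and its genes did not move together. Its summed level was 407, 439 and 415 CPM in CA1, 454, 453 and 467 in T1, 531, 500.4 and 516 in NeoT, and 452, 438 and 451 in A10. NeoT lay above every other line, and CA1 overlapped A10. Of the 4 genes, 1 was higher and 1 lower in CA1 (25% each, against 34.4% and 36.5% of all genes tested). In T1 1 was higher and 1 lower (25% each, against 26% and 25.9%). In NeoT 3 were higher and 1 lower (75% and 25%, against 33.7% and 36.7%). The same omission of T1 replicate 1 and NeoT replicate 3 gave 2 lower in CA1 and 2 in T1.

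SDHA, the flavoprotein that oxidises succinate, had 148, 171 and 158 CPM in CA1, 176, 182 and 178 CPM in T1, 219, 206 and 222 CPM in NeoT and 133, 147 and 139.9 CPM in A10. All 9 libraries of the derived lines lay above A10. It rose in NeoT (log2 fold change 0.62 ± 0.07 SE, adjusted p = 1.05e-07), in T1 (log2 fold change 0.35 ± 0.07 SE, adjusted p = 0.000188) and in CA1 (log2 fold change 0.19 ± 0.07 SE, adjusted p = 0.0172). The CA1 call was lost without A10 replicate 1 (0.15, adjusted p = 0.0722) and without CA1 replicate 2 (0.13, adjusted p = 0.12). SDHB, the iron-sulfur subunit, had 98.5, 101 and 104 CPM in CA1, 96.6, 96.7 and 102 CPM in T1, 109, 103 and 98.2 CPM in NeoT and 90.6, 90.8 and 96.7 CPM in A10. NeoT and CA1 lay above A10, by little, and T1 overlapped it. It passed the test in NeoT (log2 fold change 0.16 ± 0.06 SE, adjusted p = 0.0403), but that call was lost in 9 of the 12 fits that left out 1 library, with adjusted p up to 0.16 without NeoT replicate 1, and also in a fit to the NeoT and A10 libraries alone and with no filter.

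The anchors that hold complex II in the membrane and bind ubiquinone differed from each other. SDHC had 69.5, 75.5 and 66.9 CPM in CA1, 87.6, 89.4 and 94.7 CPM in T1, 71.5, 71 and 74.3 CPM in NeoT and 117, 108 and 115 CPM in A10. All derived libraries lay below A10, and CA1 overlapped NeoT. It fell in CA1 (log2 fold change -0.68 ± 0.07 SE, adjusted p = 6.54e-08), in T1 (log2 fold change -0.32 ± 0.07 SE, adjusted p = 0.000636) and in NeoT (log2 fold change -0.65 ± 0.07 SE, adjusted p = 1.24e-07). SDHD had 91.1, 91.7 and 86.2 CPM in CA1, 93.8, 85.2 and 92.4 CPM in T1, 132, 120.2 and 122 CPM in NeoT and 110.3, 92.3 and 99.5 CPM in A10. NeoT lay above all other libraries and rose against A10 (log2 fold change 0.31 ± 0.07 SE, adjusted p = 0.00122). In CA1 and T1 it stood at -0.17 (adjusted p = 0.0518) and -0.16 (adjusted p = 0.0878), both short of the threshold. The CA1 value passed under 9 of 22 alternatives, with adjusted p of 0.0163 (without A10 replicate 2) to 0.0465, among them limma-voom, upper-quartile scaling, no filter, the 2 lines alone and the fits without NeoT replicate 1 or 3. The T1 value passed under 4 of 22, with adjusted p of 0.0313 (without A10 replicate 2) to 0.0496, among them the 2 lines alone and the fit without NeoT replicate 3.

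**Figure D3:**
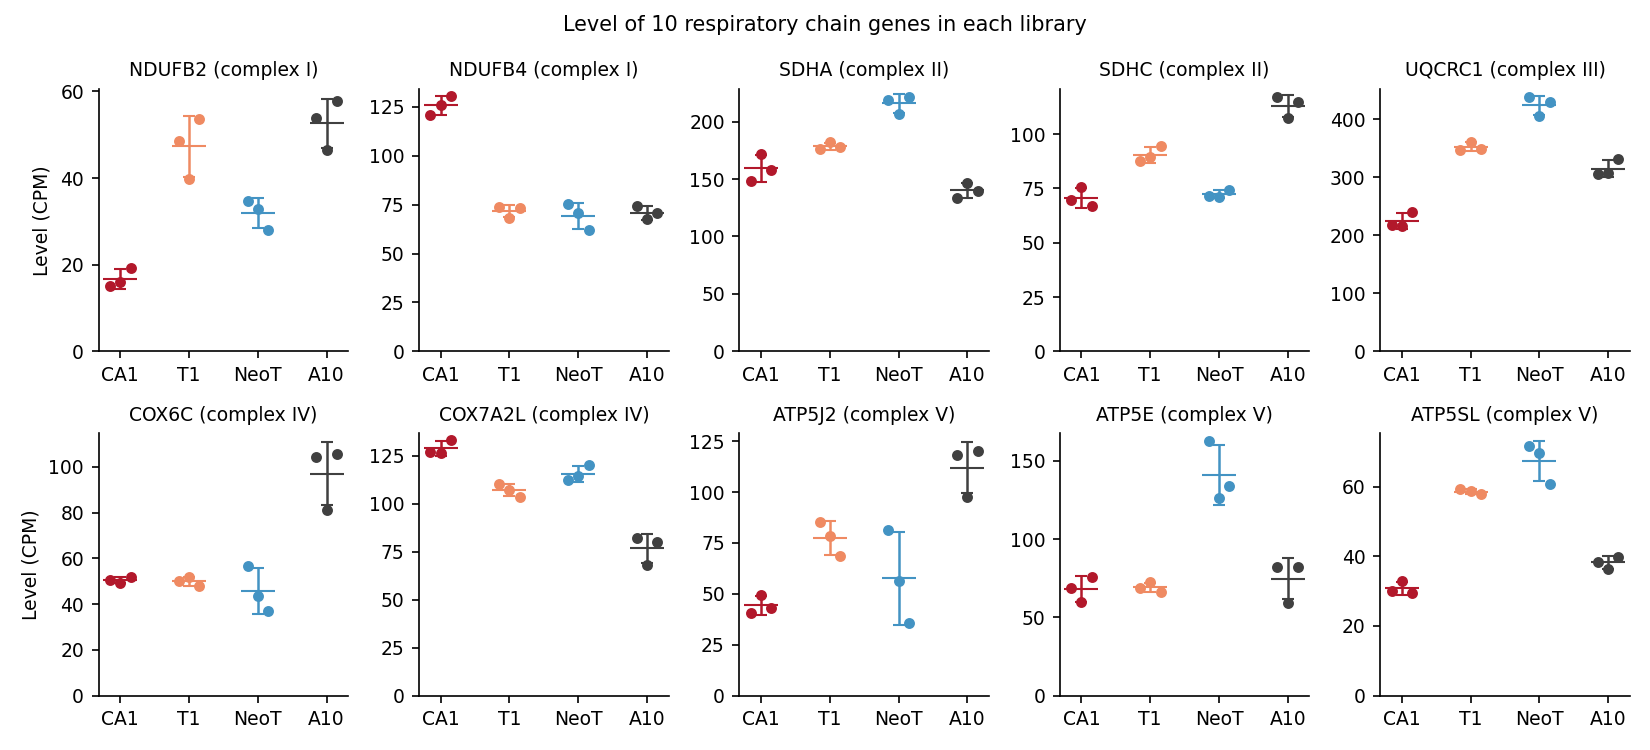
Level in CPM (y axis, from 0) of 10 genes in CA1, T1, NeoT and A10 (x axis), 1 point per library with the mean and SD of 3 libraries. Complex III is shown by UQCRC1 alone, and the genes placed in complex V are ATP5J2, ATP5E and ATP5SL. NDUFB2 is lowest and NDUFB4 highest in CA1, SDHC and COX6C lie below A10 in every derived line, SDHA and COX7A2L lie above it, and ATP5E is highest in NeoT.

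Complex III passes electrons from ubiquinol to cytochrome c. Its summed level was 956, 950 and 1039 CPM in CA1, 1216, 1209 and 1191 in T1, 1544, 1362 and 1251 in NeoT, and 1244, 1121 and 1288 in A10. CA1 lay below all other libraries. Of its 9 genes, 1 was higher and 5 lower in CA1 (11.1% and 55.6%, against 34.4% and 36.5% of all genes tested). In T1 2 were higher and 0 lower (22.2% and 0%, against 26% and 25.9%). In NeoT 2 were higher and 2 lower (22.2% each, against 33.7% and 36.7%). For the 0 genes that edgeR called lower in T1, 2 passed at an unadjusted p under 0.05, DESeq2 called 1 and limma-voom 0. With T1 replicate 1 and NeoT replicate 3 out of the fit, 2 were called lower in T1, and in NeoT 4 were higher and 1 lower.

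The core proteins UQCRC1 and UQCRC2, which face the matrix, went opposite ways in CA1. UQCRC1 had 218, 216 and 239.6 CPM in CA1, 346, 361 and 349 CPM in T1, 437, 405 and 429 CPM in NeoT and 305, 308 and 331 CPM in A10. NeoT stood highest, then T1, then A10, then CA1, and no line overlapped its neighbour. Its level fell in CA1 (log2 fold change -0.49 ± 0.06 SE, adjusted p = 1.17e-06) and rose in NeoT (log2 fold change 0.43 ± 0.06 SE, adjusted p = 5.09e-06). Its rise in T1 was small (0.16, adjusted p = 0.0324) and was lost without any 1 T1 library and without A10 replicate 1 or 2 (adjusted p up to 0.113). UQCRC2 had 232, 233 and 243 CPM in CA1, 231, 223 and 231 CPM in T1, 292, 288 and 326 CPM in NeoT and 173, 178 and 178 CPM in A10. All derived libraries lay above A10. Expression rose in NeoT (log2 fold change 0.78 ± 0.06 SE, adjusted p = 1.52e-09), in CA1 (log2 fold change 0.42 ± 0.06 SE, adjusted p = 5.46e-06) and in T1 (log2 fold change 0.37 ± 0.06 SE, adjusted p = 4.07e-05).

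The Rieske protein UQCRFS1, the iron-sulfur subunit, did not pass the test against A10 in any line, at -0.08 in CA1, 0.16 in T1 and -0.09 in NeoT. Of the small subunits, UQCRQ, which binds ubiquinone, had 83.3, 80.6 and 101 CPM in CA1, 138, 118 and 126 CPM in T1, 159.7, 104 and 85.9 CPM in NeoT and 179.5, 149.6 and 195 CPM in A10. CA1 lay below A10, and so did T1, while NeoT overlapped A10. It fell in CA1 (log2 fold change -0.99 ± 0.20 SE, adjusted p = 0.00135). In NeoT its call (-0.58, adjusted p = 0.0247) was lost without NeoT replicate 3 (-0.41, adjusted p = 0.107), without NeoT replicate 2 and without A10 replicate 1 or 3. UQCR11, whose promoter is printed above, had 53.5, 50.6 and 63.1 CPM in CA1, 77.6, 91.5 and 91.8 CPM in T1, 110.4, 78.6 and 75.3 CPM in NeoT and 103, 82.2 and 114 CPM in A10. CA1 lay below all other libraries, and it fell there (log2 fold change -0.84 ± 0.15 SE, adjusted p = 0.000227).

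UQCR10 had 42.2, 48.7 and 51.5 CPM in CA1, 57.9, 49.5 and 53.6 CPM in T1, 44.6, 42.96 and 29.4 CPM in NeoT and 60.1, 54.3 and 65.1 CPM in A10. NeoT and CA1 lay below A10, and NeoT replicate 3 lowest. Expression fell in NeoT (log2 fold change -0.61 ± 0.13 SE, adjusted p = 0.000362). Its CA1 call (-0.33, adjusted p = 0.0264) was lost without CA1 replicate 1 (adjusted p = 0.119) or 2 and without A10 replicate 1 or 3. UQCRHL is an intronless copy of UQCRH at 2.37 to 6.11 CPM, so how reads were divided between the 2 genes is uncertain. UQCRHL fell in CA1 (-0.71, adjusted p = 0.0316), a call lost without A10 replicate 1 or 3 or CA1 replicate 2 or 3 (adjusted p up to 0.13), and UQCRH stood at -0.36 (adjusted p = 0.206).

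Complex IV, cytochrome c oxidase, reduces oxygen. Its summed level was 1322, 1340 and 1400 CPM in CA1, 1615, 1547 and 1514 in T1, 1835, 1557 and 1258 in NeoT, and 1631, 1511 and 1718 in A10. CA1 lay below T1 and A10, while NeoT replicate 3 lay below all CA1 libraries and NeoT replicate 1 above all others. Of its 13 tested genes, 2 were higher and 6 lower in CA1 (15.4% and 46.2%, against 34.4% and 36.5% of all genes tested). In T1 2 were higher and 2 lower (15.4% each, against 26% and 25.9%). In NeoT 1 was higher and 3 lower (7.69% and 23.1%, against 33.7% and 36.7%). With T1 replicate 1 and NeoT replicate 3 left out the counts were 2 and 9 in CA1, 3 and 3 in T1, and 5 and 3 in NeoT.

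COX7A2L, a homologue of COX7A2 that helps to join complexes III and IV into supercomplexes, was higher in all derived lines. It had 127, 126 and 134 CPM in CA1, 110.1, 107 and 104 CPM in T1, 112, 115 and 120.2 CPM in NeoT and 82.1, 68.1 and 79.98 CPM in A10. CA1 lay above the other 9 libraries and A10 below them. It rose in CA1 (log2 fold change 0.75 ± 0.07 SE, adjusted p = 3.83e-08), NeoT (log2 fold change 0.59 ± 0.07 SE, adjusted p = 8.51e-07) and T1 (log2 fold change 0.48 ± 0.07 SE, adjusted p = 2.06e-05). COX6C, a small subunit, had 50.5, 49.4 and 51.7 CPM in CA1, 50.2, 52.03 and 48.04 CPM in T1, 56.5, 43.6 and 36.9 CPM in NeoT and 104, 81.04 and 106 CPM in A10. A10 lay above all derived libraries, which overlapped each other. It fell in NeoT (log2 fold change -1.08 ± 0.12 SE, adjusted p = 5.68e-07), T1 (log2 fold change -0.96 ± 0.12 SE, adjusted p = 4.49e-06) and CA1 (log2 fold change -0.94 ± 0.12 SE, adjusted p = 2.98e-06).

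COX4I1, the common form of the subunit through which ATP inhibits the enzyme, had 228, 221 and 226 CPM in CA1, 336, 293 and 310 CPM in T1, 403, 352 and 280.3 CPM in NeoT and 306, 325 and 335 CPM in A10. CA1 lay below all other libraries. It fell in CA1 (log2 fold change -0.52 ± 0.10 SE, adjusted p = 0.000117) and did not pass in T1 (-0.04) or NeoT (0.10, adjusted p = 0.355), although without NeoT replicate 3 it did (0.23, adjusted p = 0.002). COX7B had 50.2, 42.6 and 57.9 CPM in CA1, 75.3, 71.1 and 72.5 CPM in T1, 89.6, 62.1 and 54.6 CPM in NeoT and 82.4, 68.4 and 81.4 CPM in A10 and fell in CA1 (log2 fold change -0.62 ± 0.16 SE, adjusted p = 0.00274), where its libraries lay below those of A10. COX5B, whose promoter is printed above, fell in CA1 (-0.43, adjusted p = 0.0123), a call lost without A10 replicate 3 (adjusted p = 0.052). NDUFA4 had 80.4, 72.2 and 82.1 CPM in CA1, 99.3, 92.8 and 92.4 CPM in T1, 119, 98.6 and 94.8 CPM in NeoT and 108, 98.2 and 108 CPM in A10 and fell in CA1 (log2 fold change -0.42 ± 0.09 SE, adjusted p = 0.000234), below every other library.

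COX6A1 was lowest in NeoT, with 148, 174 and 164 CPM in CA1, 194, 216 and 180.4 CPM in T1, 148, 124 and 122 CPM in NeoT and 196, 192 and 219.7 CPM in A10. NeoT lay below all other libraries, and CA1 below A10. Its level fell in NeoT (log2 fold change -0.63 ± 0.09 SE, adjusted p = 4.56e-06) and CA1 (log2 fold change -0.32 ± 0.09 SE, adjusted p = 0.00324). COX8A had 140, 156 and 156 CPM in CA1, 125, 131 and 116 CPM in T1, 130.3, 126 and 86.9 CPM in NeoT and 172, 167 and 189 CPM in A10. A10 lay above all derived libraries. It fell in NeoT (log2 fold change -0.62 ± 0.11 SE, adjusted p = 0.000121) and T1 (log2 fold change -0.51 ± 0.11 SE, adjusted p = 0.00124), and in CA1 it missed the threshold (-0.23, adjusted p = 0.0797) but passed it without NeoT replicate 3 (adjusted p = 0.00114). COX7A2 had 88.9, 95.6 and 100.2 CPM in CA1, 80.6, 76.8 and 85.2 CPM in T1, 108, 80.1 and 79.4 CPM in NeoT and 92.5, 90.8 and 102 CPM in A10 and passed against A10 in no line, with -0.24 (adjusted p = 0.0573) in T1, which passed without NeoT replicate 1, 2 or 3 (adjusted p = 0.0089, 0.0492 and 0.0212).

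COX6B1, which lies at the contact of the cytochrome c oxidase dimer, had 93.7, 95.5 and 100.4 CPM in CA1, 165, 142 and 141 CPM in T1, 215, 165 and 79.5 CPM in NeoT and 109, 103 and 109.6 CPM in A10. T1 lay above A10 and CA1 below it, and NeoT ran from above all others to below all others. No comparison with A10 passed, with 0.52 (adjusted p = 0.132) in NeoT and 0.48 (adjusted p = 0.194) in T1. Without NeoT replicate 3 it was higher in NeoT (0.82, adjusted p = 2.06e-08) and T1 (0.48, adjusted p = 1.92e-05).

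Tissue isoforms of complex IV had almost no counts. COX4I2 (lung and hypoxia), COX6A2 (heart and muscle), COX7B2 (testis) and COX8C (testis) had no count in any library, which allows up to 0.0463 CPM in CA1, 0.0357 in T1, 0.0474 in NeoT and 0.0326 in A10, the level of 3 counts over the line. These limits cover counting error only. COX7A1 (heart and muscle) had 1 count, in T1 replicate 2. The exception was COX6B2, the testis form of COX6B1, with 36, 38 and 49 counts in CA1, 44, 34 and 38 in T1, 0, 2 and 3 in NeoT and 1, 2 and 3 in A10. Its level stayed low, at no more than 2.05 CPM. All CA1 and T1 libraries lay above all NeoT and A10 libraries. It rose in CA1 (log2 fold change 4.73 ± 0.67 SE, adjusted p = 4.89e-06) and T1 (log2 fold change 4.28 ± 0.67 SE, adjusted p = 2.93e-05) and stood at 0.25 (adjusted p = 0.826) in NeoT. Of complex V, the readthrough gene ATP5J2-PTCD1 had 21 counts in T1 replicate 1, 8 in NeoT replicate 1 and 0 in the others, and ATP5L2, a copy of subunit g, 3 counts in NeoT replicate 2.

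**Figure D4:**
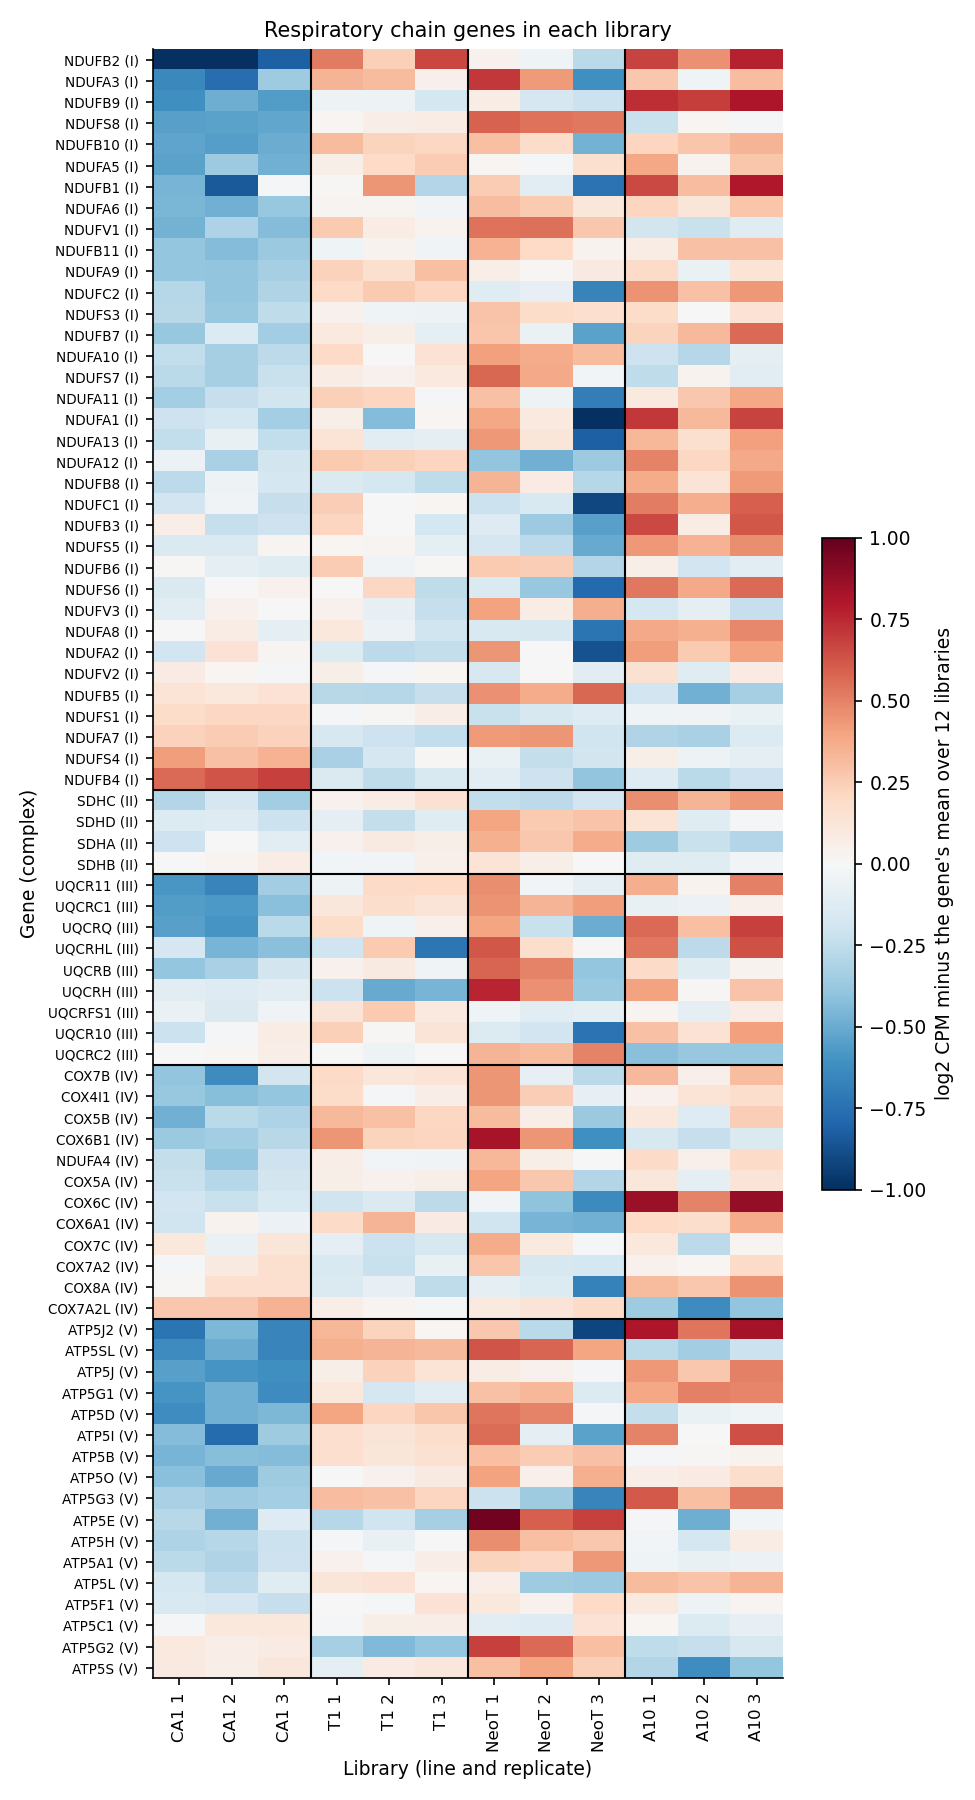
Level of 77 tested genes (rows, by complex) in 12 libraries (columns), as log2 CPM minus the mean of the gene over all libraries. Rows are ordered within a complex by the mean of this value in CA1. The colour scale ends at -1 and 1, and COX6B2 is left out. CA1 columns are lowest for most rows of complexes I and V, and the NeoT 3 column stands below NeoT 1 and NeoT 2 in many rows.

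Complex V, the ATP synthase, was lower in CA1 for most of its genes. Its summed level was 2371, 2385 and 2438 CPM in CA1, 3159, 3066 and 3135 in T1, 3663, 3426 and 3459 in NeoT, and 3084, 2960 and 3134 in A10. CA1 lay below and NeoT above all other libraries, while T1 overlapped A10. Of 17 tested genes, 2 were higher and 13 lower in CA1 (11.8% and 76.5%, against 34.4% and 36.5% of all genes tested). In T1 4 were higher and 2 lower (23.5% and 11.8%, against 26% and 25.9%). In NeoT 8 were higher and 5 lower (47.1% and 29.4%, against 33.7% and 36.7%). These counts include the coupling or assembly factors ATP5S and ATP5SL. Both were higher in T1 and NeoT, and in CA1 ATP5S was higher and ATP5SL lower. In CA1 against NeoT 0 were higher and 11 lower (0% and 64.7%, against 33.8% and 32.7%), with a median log2 fold change of -0.56. For the 0 that edgeR called higher, 0 passed at an unadjusted p under 0.05, and DESeq2 and limma-voom also called 0. With T1 replicate 1 and NeoT replicate 3 out of the fit these last counts were 1 and 13, and in T1 against A10 4 were higher and 6 lower.

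The head of the enzyme, where ATP is made, follows first. ATP5B, the catalytic beta subunit, had 638, 657 and 652 CPM in CA1, 989, 959 and 979.6 CPM in T1, 1082, 1048 and 1077 CPM in NeoT and 874, 889.5 and 902 CPM in A10. The lines stood apart with no overlap, NeoT highest and CA1 lowest. Its level fell in CA1 (log2 fold change -0.45 ± 0.05 SE, adjusted p = 1.97e-07) and rose in NeoT (log2 fold change 0.27 ± 0.05 SE, adjusted p = 0.000109). Its small rise in T1 (0.14, adjusted p = 0.0299) was lost without any 1 T1 or A10 library (adjusted p up to 0.0994). ATP5A1, the alpha subunit, fell in CA1 (-0.20, adjusted p = 0.00857) and rose in NeoT (0.35, adjusted p = 7.57e-05). ATP5D, the delta subunit of the stalk, fell in CA1 (-0.40, adjusted p = 0.00488) and rose in NeoT (0.48, adjusted p = 0.00133) and T1 (0.41, adjusted p = 0.00592), and ATP5C1, the gamma subunit, passed in none.

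ATP5E, the epsilon subunit, was high in NeoT alone. It had 68.9, 59.7 and 76.1 CPM in CA1, 68.5, 72.5 and 66.3 CPM in T1, 162, 126 and 134 CPM in NeoT and 82.5, 59.4 and 82 CPM in A10. The 3 NeoT libraries lay above the other 9, which overlapped. It rose in NeoT (log2 fold change 0.91 ± 0.12 SE, adjusted p = 5.17e-06) and stood at -0.13 (adjusted p = 0.358) in CA1 and -0.11 (adjusted p = 0.478) in T1. Without A10 replicate 2 its CA1 difference passed (-0.27, adjusted p = 0.0387).

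Subunit c, whose ring turns as protons pass, is made from 3 genes that encode the same mature protein, and these did not move together. ATP5G1 had 35.4, 38.2 and 34.4 CPM in CA1, 57.3, 47.2 and 49.5 CPM in T1, 65.1, 67.1 and 48.4 CPM in NeoT and 69.4, 75.3 and 74.7 CPM in A10. A10 lay above all derived libraries and CA1 below all others. It fell in CA1 (log2 fold change -1.02 ± 0.11 SE, adjusted p = 1.16e-07) and T1 (log2 fold change -0.51 ± 0.11 SE, adjusted p = 0.000511), and its call in NeoT (-0.28, adjusted p = 0.0264) was lost without NeoT replicate 3 (-0.15, adjusted p = 0.111) and without A10 replicate 2 or 3. ATP5G2 had 218, 213 and 215 CPM in CA1, 161, 149.5 and 155 CPM in T1, 326, 301 and 250.3 CPM in NeoT and 170.1, 173 and 181 CPM in A10. NeoT lay highest and T1 lowest, with CA1 above A10. Its level rose in NeoT (log2 fold change 0.74 ± 0.08 SE, adjusted p = 9.23e-08) and CA1 (log2 fold change 0.30 ± 0.08 SE, adjusted p = 0.00217).

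ATP5G3 had 109, 107 and 108 CPM in CA1, 169.5, 168 and 159 CPM in T1, 118, 107 and 86.8 CPM in NeoT and 210.1, 169 and 197 CPM in A10. CA1 and NeoT lay below T1 and A10, which overlapped each other. Expression fell in NeoT (log2 fold change -0.88 ± 0.09 SE, adjusted p = 1.34e-07) and CA1 (log2 fold change -0.83 ± 0.09 SE, adjusted p = 3.17e-07) and stood at -0.21 (adjusted p = 0.0632) in T1, a difference that passed without A10 replicate 2 (-0.30, adjusted p = 0.017) or without NeoT replicate 1 or 3.

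Of the peripheral stalk, which holds the head still, ATP5J, ATP5O, ATP5H and ATP5F1 were all lower in CA1, with log2 fold changes of -0.99, -0.53, -0.23 and -0.21. The call of ATP5H was lost without A10 replicate 3 (adjusted p = 0.0809). In NeoT ATP5H was higher (0.39) and ATP5J lower (-0.37). Among the small membrane subunits, ATP5J2 (subunit f) had 40.7, 49.6 and 42.8 CPM in CA1, 85.2, 78.6 and 68.6 CPM in T1, 81.4, 56.1 and 35.8 CPM in NeoT and 118, 97.8 and 120.3 CPM in A10. A10 lay above all derived libraries, and the NeoT libraries were spread from within T1 to below CA1. Expression fell in CA1 (log2 fold change -1.34 ± 0.24 SE, adjusted p = 0.000621) and NeoT (log2 fold change -0.95 ± 0.24 SE, adjusted p = 0.00494). In T1 it stood at -0.53 (adjusted p = 0.0843), and passed without NeoT replicate 1 (adjusted p = 0.00784) or 3 (adjusted p = 0.012).

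ATP5SL, known as DMAC2 and in fact a factor in the assembly of complex I, had 30.01, 32.9 and 29.4 CPM in CA1, 59.2, 58.6 and 57.97 CPM in T1, 71.7, 69.5 and 60.8 CPM in NeoT and 38.5, 36.4 and 39.9 CPM in A10. The lines stood in the order NeoT, T1, A10, CA1 with no overlap. It rose in NeoT (log2 fold change 0.82 ± 0.08 SE, adjusted p = 4.35e-08) and T1 (log2 fold change 0.62 ± 0.08 SE, adjusted p = 3.45e-06) and fell in CA1 (log2 fold change -0.31 ± 0.08 SE, adjusted p = 0.0025). ATP5S, its relative, was low, at 3.44 to 6.94 CPM, and was higher in all 3 derived lines, at 0.51 in CA1, 0.46 in T1 and 0.73 in NeoT. Without A10 replicate 2 its call in CA1 was lost (adjusted p = 0.0574), and that in T1 was lost without A10 replicate 2 or 3 or T1 replicate 2 or 3, with adjusted p up to 0.111.

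The same genes could be followed through the 3 comparisons with A10. In all 3 derived lines 11 genes were lower (13.9%, against 13% of all genes tested), among them ATP5G1, ATP5J, COX6C, NDUFB9, NDUFS6 and SDHC. Higher in all 3 were 4 genes (5.06%, against 10.5%), ATP5S, COX7A2L, SDHA and UQCRC2. A further 5 (6.33%, against 1.08%), ATP5B, ATP5D, ATP5SL, NDUFV1 and UQCRC1, were higher in NeoT and T1 and lower in CA1. Of these, the T1 calls of ATP5B and UQCRC1 held in 6 and 7 of the 12 fits that left out 1 library. The CA1 call of NDUFV1 held in 9. Called lower in CA1 and in neither other line were 17 genes (21.5%, against 4.7%), among them COX4I1, ATP5O, NDUFA6 and UQCR11, and 12 were called in none (15.2%, against 10.1%). The comparisons share the A10 libraries, and a gene called in 1 line was not tested for a difference from the others by these counts.

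The subunits outside the symbol pattern were CYC1, NDUFAB1, ATPIF1, USMG5 and C14orf2. CYC1, the haem subunit of complex III, averaged 135 ± 7.15 CPM in CA1, 170.1 ± 5.59 in T1, 265 ± 25.1 in NeoT and 258 ± 15.9 in A10, and fell in CA1 (log2 fold change -0.94 ± 0.07 SE, adjusted p = 1.95e-09) and T1 (log2 fold change -0.60 ± 0.07 SE, adjusted p = 1.45e-06). ATPIF1, which stops ATP synthase from running backwards, had 33.8, 41.7 and 38.9 CPM in CA1, 43.5, 44.9 and 34.1 CPM in T1, 33.7, 24.97 and 19.1 CPM in NeoT and 73.1, 50.5 and 66.5 CPM in A10. A10 lay above all derived libraries. It fell in NeoT (log2 fold change -1.29 ± 0.19 SE, adjusted p = 4.46e-05), CA1 (log2 fold change -0.73 ± 0.19 SE, adjusted p = 0.00321) and T1 (log2 fold change -0.64 ± 0.18 SE, adjusted p = 0.0108). USMG5 and C14orf2, small ATP synthase subunits, gave different calls: USMG5 was at -0.15 (adjusted p = 0.344) in CA1, and C14orf2 fell there (-0.24, adjusted p = 0.0286). NDUFAB1, the acyl carrier protein in complex I, stood at -0.15 (adjusted p = 0.152) in CA1 and fell in NeoT (-0.28, adjusted p = 0.0108).

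Assembly factors, which build the complexes but do not stay in them, were counted in CA1 against A10. For complex I, 4 of 17 were higher and 6 lower (median 0.01), for complex III 1 and 3 of 6 (median -0.40), for complex IV 3 and 10 of 21 (median -0.29), and for complex V 2 and 1 of 3 (median 0.42). Complex II factors were 2 higher and 1 lower of 4 (median 0.17). Of all genes tested, 34.4% were higher and 36.5% lower in CA1. ATPAF2, which binds the alpha subunit before the head is built, rose in all derived lines (1.54 in CA1, 1.53 in T1 and 1.46 in NeoT). C17orf89 (NDUFAF8), a complex I factor, fell in CA1 (-1.75), T1 (-0.46) and NeoT (-1.54). Other complex I factors rose: ECSIT in CA1 (0.80), T1 (0.40) and NeoT (0.71), NDUFAF3 in CA1 (0.75) and NDUFAF7 in NeoT (1.25). NDUFAF3 fell in NeoT (-0.29). COX20, a chaperone of a mitochondrially encoded complex IV subunit, fell in CA1 (-1.82), T1 (-0.50) and NeoT (-1.46). COA6 also fell in CA1 (-1.54), T1 (-1.45) and NeoT (-0.66). SURF1, another complex IV factor, rose in CA1 (0.80), T1 (0.66) and NeoT (0.46), and COX15, which makes haem a, rose in T1 (0.40) and NeoT (0.62).

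Regulators of mitochondrial biogenesis gave 4 higher and 6 lower of 14 in CA1, 3 and 3 in T1, and 6 and 5 in NeoT. Of all genes tested, 34.4% were higher and 36.5% lower in CA1, 26% and 25.9% in T1, and 33.7% and 36.7% in NeoT. TFAM, which packages and transcribes mitochondrial DNA, averaged 37.7 ± 1.27 CPM in CA1, 77.03 ± 4.86 in T1, 38.5 ± 3.51 in NeoT and 75.8 ± 5.74 in A10, and fell in CA1 (log2 fold change -1.01 ± 0.09 SE, adjusted p = 4.97e-09) and NeoT (log2 fold change -0.98 ± 0.09 SE, adjusted p = 7.25e-09). PPARGC1A, the coactivator PGC-1alpha, rose in NeoT (2.73, adjusted p = 5.93e-10), to 13.3, 14.97 and 17.1 CPM in NeoT against 2.24, 2.29 and 2.28 CPM in A10. PPARGC1B, its relative PGC-1beta, fell in CA1 (-2.16, adjusted p = 6.1e-11), T1 (-0.36, adjusted p = 0.0179) and NeoT (-1.14, adjusted p = 1.82e-07). POLRMT, the mitochondrial RNA polymerase, rose in CA1 (0.43), T1 (0.42) and NeoT (1.09). MYC rose in NeoT (1.39) and fell in CA1 (-0.76). TFB2M, a transcription factor of mitochondrial DNA, fell in CA1 (-1.09), T1 (-1.22) and NeoT (-1.04). Both rRNAs of the mitochondrial genome were higher in every derived line. RNR2 had 3460, 2847 and 3301 CPM in CA1, 2030, 2230 and 2056 CPM in T1, 4447, 3561 and 4719 CPM in NeoT and 1279, 1184 and 1240 CPM in A10. All derived libraries lay above A10, and it rose in NeoT (log2 fold change 1.78 ± 0.09 SE, adjusted p = 1.34e-11), CA1 (log2 fold change 1.38 ± 0.09 SE, adjusted p = 4.04e-10) and T1 (log2 fold change 0.77 ± 0.09 SE, adjusted p = 1.37e-06).

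Neighbouring pathway lists were mixed. Beside the counts below, 34.4% of all genes tested were higher and 36.5% lower in CA1. The shares were 26% and 25.9% in T1, and 33.7% and 36.7% in NeoT. Of 21 genes of the citric acid cycle and its entry, 8 were higher and 8 lower in CA1, 11 and 2 in T1, and 12 and 6 in NeoT. PDK4, a kinase that shuts off pyruvate dehydrogenase, rose in CA1 (2.11), T1 (2.53) and NeoT (3.41), and FH, fumarase, fell in CA1 (-1.31), T1 (-0.86) and NeoT (-0.90). Of 23 electron carriers and carriers of the inner and outer membrane, 6 were higher and 10 lower in CA1, 7 and 3 in T1, and 9 and 8 in NeoT. ETFA and ETFB, which pass electrons from fatty acid oxidation to the ubiquinone pool, rose in CA1 (1.19 and 0.61), T1 (0.54 and 0.66) and NeoT (0.31 and 1.87). VDAC2, an outer membrane channel, rose in CA1 (0.84), T1 (0.19) and NeoT (0.68). CYCS, cytochrome c itself, fell in NeoT (-1.08, adjusted p = 4.22e-09) and CA1 (-0.70, adjusted p = 1.36e-06). NDUFA4L2, the hypoxia-induced relative of NDUFA4, rose in CA1 (2.32, adjusted p = 9.24e-05) at a low level, 3.83, 4.19 and 4.53 CPM in CA1 against 1.00, 0.981 and 0.506 CPM in A10.

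Some genes moved as the genes around them did. For each gene the median log2 fold change of the tested genes within 5 Mb was taken, with positions of GRCh38. Genes of the respiratory set were left out of these medians. Over the 79 genes the Pearson correlation of a gene with its neighbourhood was 0.21 in CA1, 0.46 in T1 and 0.44 in NeoT against A10, and without COX6B2 0.33, 0.43 and 0.43 over 78 genes. Spearman's rho over the 79 was 0.25 in CA1, 0.31 in T1 and 0.38 in NeoT. These are descriptions across genes that share libraries. The neighbourhood of SDHC (chromosome 1, 161314381 to 161363206) stood at -0.70 in CA1, -0.72 in T1 and -0.74 in NeoT, beside -0.68, -0.32 and -0.65 for SDHC itself. NDUFB9 (chromosome 8, 124539123 to 124549979) had a neighbourhood of -0.76 in CA1, -0.57 in T1 and -1.06 in NeoT. What these neighbours share was not tested.

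For other genes the neighbourhood did not share the difference. NDUFB2 (chromosome 7, 140696708 to 140706643) fell by 1.65 on the log2 scale in CA1 where its neighbourhood stood at -0.03. The neighbourhood of ATP5J2 (chromosome 7, 99458195 to 99466167) stood at 0.15 in CA1, beside -1.34 for the gene. NDUFB6 (chromosome 9, 32553001 to 32573159) lay among genes that were higher, by a median of 0.57 in CA1, 0.51 in T1 and 0.67 in NeoT, and passed the test in none of them (0.00, 0.15 and 0.17). ATP5SL (chromosome 19, 41431318 to 41439912) had a neighbourhood of 0.64 in NeoT and 0.58 in T1, close to its own 0.82 and 0.62, but of 0.10 in CA1, where the gene stood at -0.31. UQCRC1 (chromosome 3, 48599002 to 48609646) had a neighbourhood within 0.08 of 0 in all 3.

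**Figure D5:**
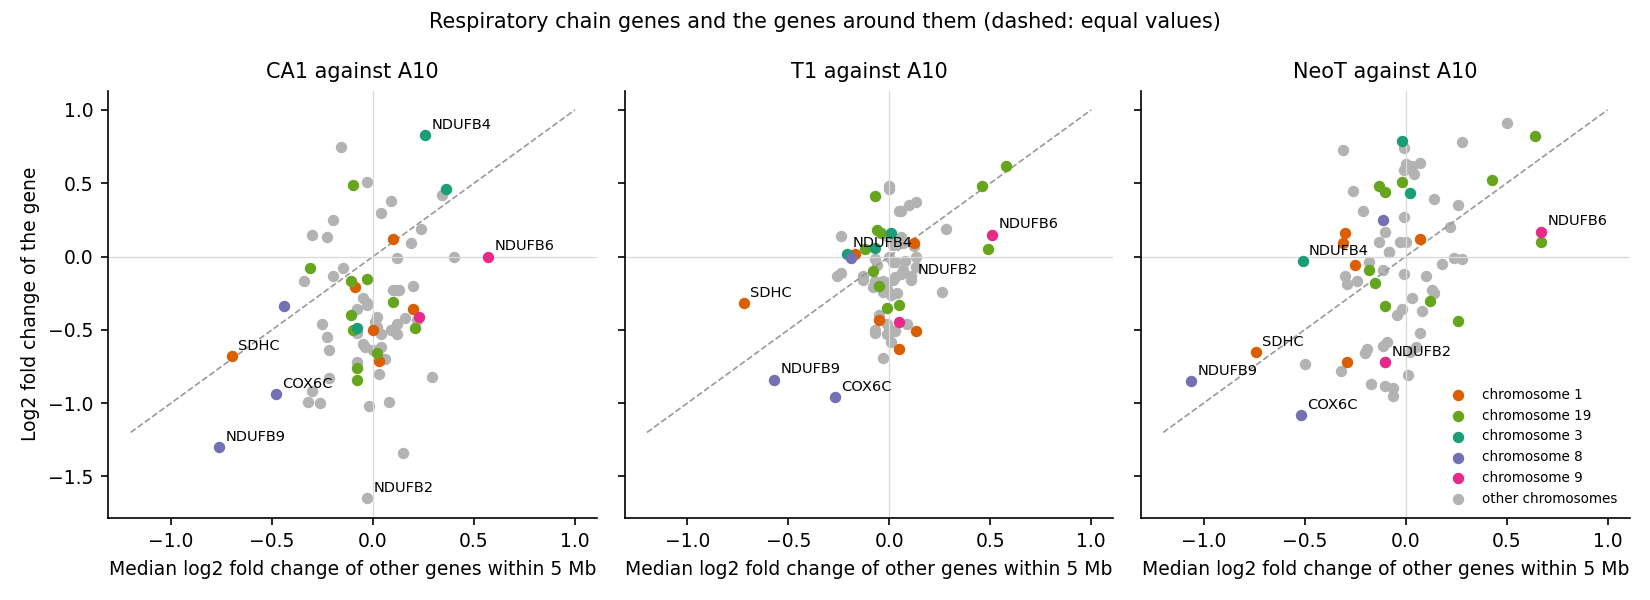
Log2 fold change of 77 tested genes (y axis) against the median of genes outside the respiratory set within 5 Mb (x axis), in CA1, T1 and NeoT against A10. Points are coloured by chromosome, the dashed line marks equal values and COX6B2 is left out. SDHC and NDUFB9 lie at low values on both axes, NDUFB2 in CA1 lies low with a neighbourhood near 0, and NDUFB6 has a high neighbourhood and stays near 0.

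Transcript length was set beside the calls. Lengths were those of the principal transcripts in GENCODE 29, found for all 79 genes and for 95.2% of all genes tested. Of 26 respiratory genes under 750 bases, 76.9% were lower in CA1 than in A10, against 29.1% of all 498 tested genes of that length. Of those of 750 to 1000, 1000 to 1500 and 1500 to 2500 bases, 62.5%, 46.2% and 61.5% were lower. For all genes tested of these lengths the shares were 37.2%, 35.2% and 39.1%. Of the 11 of 2500 bases or more, 45.5% were lower, against 37.8% of all such genes. Over the 79 genes the Spearman correlation of length with the log2 fold change was 0.33 in CA1, 0.44 in T1 and 0.42 in NeoT, and over all genes 0.00 in CA1, 0.03 in T1 and -0.01 in NeoT. This is a description across genes, and the part of the low short genes in NeoT replicate 3 was not tested.

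Likeness over the 12 libraries was taken from log2 CPM. The median Pearson correlation of log2 CPM over 3081 pairs of the 79 genes was 0.29, with 67% of pairs positive, against 0.00 and 50.1% over all pairs of genes tested. Within complexes the median was 0.42 in complex V, 0.39 in III, 0.30 in I, 0.15 in IV and 0.07 in II. The genes share libraries, and these values carry no test. The genes most like UQCRC1, the gene with the largest F statistic of complex III, were ADAMTS9 (r = 0.9845), DNER and ATP5B. By the same rule in complexes II, IV and V, for SDHC they were TLL1 (r = 0.984), C11orf82 and METTL13, for COX7A2L FAM149B1 (r = 0.980), NR2F1-AS1 and LAMA4, and for ATP5SL EGR1 (r = 0.991), RUVBL2 and PPP2R1A.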

How the data were processed

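RNA was taken from 12 libraries of 4 lines, with 3 biological replicates each. Per the labels' protocols, RNA was treated with DNase and libraries were made with a NEBNext Ultra kit. The deposited values are estimated counts per gene (expected counts), which the authors made with Salmon, per the table's own name; 10.1% of values were not whole. The submitters' processing notes name GRCh38 and limma with no role. The annotation is not given in the sources used here.

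Estimated counts were rounded to whole numbers and fitted with edgeR 4.0.16 (quasi-likelihood, robust, TMM scaling, filterByExpr) in R 4.3.3, with a mean per line over all 12 libraries. P-values were adjusted by Benjamini-Hochberg over all 14417 genes tested, and a call is an adjusted p under 0.05. The biological coefficient of variation was 10.37%. The standard error of a log2 fold change is its size divided by the square root of F. Library totals were 18032404 to 35730417 estimated counts. The test was also run on simulated counts with known changes in CA1, in far fewer genes than were called here. That run does not check the test under changes this broad. Symbols were matched to RefSeq for 66 genes directly and 20 by an older name. Overlapping genes and antisense genes could share reads, since strand use in counting is not given.

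Genes and lists were chosen with earlier results of these data known. Values per library are given for the called gene with the largest rise and largest fall per complex and comparison with A10 (at least 10 CPM in the higher line, replicates not overlapping), for isoform pairs, subunit c, the SDH genes, NDUFA4 and ATPIF1. UQCRC1, ATP5B, NDUFS1 and the other subunits given by name were picked after their values were seen, as were the genes plotted by library. Values of 1 gene of complex I are counted in the sums and calls but not reported here. From each other list up to 3 genes with the smallest adjusted p in a comparison are named, so their values follow from that choice.

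Each choice was changed in turn: scaling (RLE or upper-quartile), the filter (none, or 1 CPM in 3 libraries), the tool or samples (DESeq2 1.42.0, voom in limma 3.58.1, only the lines compared), a replicate block, the 4 cytoplasmic rRNA rows taken out, and each library left out.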

Additional observations from a re-analysis of the deposited data

How the results depend on the processing

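The count of respiratory genes lower in T1 than in A10 was 14, and it was 30 in a fit to those lines alone, 27 without both T1 replicate 1 and NeoT replicate 3 (a choice made after seeing the data), and 11 to 28 with 1 library left out. In T1 against NeoT the number higher, 15, ran from 13 to 25 with 1 library left out, and the number lower, 23, from 14 to 36, and was 35 without both libraries. The other counts over all respiratory genes stayed within 1.5 times under the 22 alternatives. With the replicate block, 11 genes were higher and 50 lower in CA1 against A10, 21 and 23 in NeoT against A10, 11 and 15 in T1 against A10, 8 and 40 in CA1 against T1, 9 and 39 in CA1 against NeoT, and 17 and 22 in T1 against NeoT. Replicate numbers did not pair the libraries: deviations of same-numbered libraries correlated by -0.069 to 0.088 (18 pairs), and those of others by -0.106 to 0.083 (36 pairs). Among the 31 genes followed singly, the block ended the calls of SDHB in NeoT against A10 (adjusted p = 0.0536) and COX8A in CA1 against T1 (adjusted p = 0.0507) and gave one to SDHD in CA1 against A10 (adjusted p = 0.0465). Of 3959 repeats for 31 genes, 3772 stayed on the same side of the threshold, 84 lost a call, 103 gained one and 0 called values changed sign. No scaling moved the median of all genes beyond -0.06. Depth limits the 7 untested genes, UQCRHL, COX6B2 and ATP5S. The causes of these shifts were not tested.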
